A study of Homo sapiens with 34 samples.

Results

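The 10 genes described here encode 3 receptors of the ErbB family (EGFR, ERBB2 and ERBB3) and 7 of the ligands that act on this family (EGF, AREG, EREG, HBEGF, TGFA, BTC and NRG1). They were taken by gene symbol from a deposited table of 26336 genes, and all 10 have a row in it. The non-tumorigenic line RWPE held most EGFR and was the only line with AREG, EREG and NRG1 well above a few reads. LNCaP and MDAPCa2a held most ERBB2 and ERBB3, MDAPCa2a held most TGFA, and EGF was highest in LNCaP and in androgen-treated VCaP. Within lines on ACP, EGF was higher in VCaP with androgen than in either stripped serum or control medium, while ERBB2, ERBB3 and TGFA were lower and LNCaP EGFR higher with androgen than in stripped serum but were not called against control medium. In RWPE, AREG and EREG were higher and ERBB2 lower with androgen than in control medium. Most of these calls, the LNCaP EGFR call among them, ended when 1 library was left out.

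ErbB receptors sit in the plasma membrane, pair up when a ligand binds, and phosphorylate each other to start the RAS-MAPK and PI3K cascades. EGFR binds EGF, amphiregulin (AREG), epiregulin (EREG), HB-EGF (HBEGF), TGF-alpha (TGFA) and betacellulin (BTC). ERBB3 binds neuregulin 1 (NRG1) and has little kinase activity of its own, and ERBB2 has no known ligand and serves as the partner of the others. The ligands are made as membrane proteins and are released by proteases of the ADAM family. In the prostate, EGFR is best known from the basal layer of the epithelium, and ERBB2 and ERBB3 from luminal cells and their tumours.

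RNA was measured by poly(A)-selected sequencing in 4 established human prostate cell lines, in 34 libraries of 17 groups. The lines were RWPE (non-tumorigenic epithelium), LNCaP (used for early adenocarcinoma), VCaP and MDAPCa2a (the last pair both from bone metastases). Cells grew on tissue culture plastic or on a coating of amorphous calcium phosphate (ACP), a mineral surface used as a stand-in for bone. The series compares these surfaces and the presence of androgen.

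Medium was the control medium of each line, medium whose serum had been treated with charcoal and dextran to remove steroids ("stripped"), or stripped medium with added androgen ("androgen"). The androgen is called DHT in the sample titles and testosterone in the treatment labels, at a labelled 100 mM. RWPE had 2 libraries on plastic in control medium, 2 on ACP in control medium and 3 on ACP with androgen. LNCaP and VCaP each had plastic control, plastic stripped, ACP control, ACP stripped and ACP androgen groups. MDAPCa2a had the same groups without ACP control. Each of these groups held 2 libraries, except for the single library of VCaP plastic stripped. RWPE was kept in a serum-free keratinocyte medium with added EGF and pituitary extract, and the labels do not make clear whether its androgen group also received stripped serum. In every comparison with RWPE the cell line and the EGF in its medium cannot be told apart. LNCaP and VCaP media held 10% fetal bovine serum, and MDAPCa2a medium held 20%, with a protein coat on plastic that was not used on ACP. The labels do not say whether replicates came from separate cultures, so p-values measure the spread between these libraries.

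Promoters are shown for AREG and EREG, which changed together in RWPE, and for EGF, which changed with stripped serum in LNCaP and with androgen in VCaP. Each is 300 bases from the RefSeq promoter table (GRCh38.p14), running from 250 bases before the transcription start to 50 after it, and 8 of the 10 genes matched an entry there. Capitals mark matches, searched on both strands, to TGACGTCA (the cAMP response element), TGANTCA (the AP-1 site), TATAAA (the TATA box) and AGAACA (a half-site of the androgen response element).
EREG, chr4:74364895-74365194, plus strand: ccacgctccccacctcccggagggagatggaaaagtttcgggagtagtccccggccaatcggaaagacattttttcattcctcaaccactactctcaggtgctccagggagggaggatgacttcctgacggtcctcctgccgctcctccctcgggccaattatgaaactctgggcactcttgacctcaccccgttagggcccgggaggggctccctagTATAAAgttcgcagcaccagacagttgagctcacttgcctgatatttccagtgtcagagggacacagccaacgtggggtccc
AREG, chr4:74444886-74445185, plus strand: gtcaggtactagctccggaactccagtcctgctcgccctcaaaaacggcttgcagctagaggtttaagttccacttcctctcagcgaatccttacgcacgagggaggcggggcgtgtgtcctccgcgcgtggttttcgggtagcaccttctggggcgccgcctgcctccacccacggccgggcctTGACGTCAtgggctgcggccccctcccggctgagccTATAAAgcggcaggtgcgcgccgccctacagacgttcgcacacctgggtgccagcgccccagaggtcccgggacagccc
EGF, chr4:109912633-109912932, plus strand: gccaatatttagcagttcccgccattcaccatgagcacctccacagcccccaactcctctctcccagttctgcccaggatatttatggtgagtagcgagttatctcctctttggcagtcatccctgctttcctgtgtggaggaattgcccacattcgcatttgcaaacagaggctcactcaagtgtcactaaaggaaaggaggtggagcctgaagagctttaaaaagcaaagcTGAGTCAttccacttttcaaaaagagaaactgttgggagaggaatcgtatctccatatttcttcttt
The starts of EREG and AREG lie 80.0 kb apart on chromosome 4. Both windows hold TATAAA, 32 bases before the start in EREG and 29 in AREG, as do 11.5% of 35116 promoters of this length. The AREG window also holds TGACGTCA 65 bases before the start, a match found in 1.85% of promoters. In the EGF window the AP-1 match TGAGTCA begins 17 bases before the start, and 7.71% of promoters hold an AP-1 match. None of the 3 windows holds AGAACA, which 14.8% of promoters do. These matches describe the letters in the windows and do not show that a factor binds there.

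Libraries held 15440141 to 44779246 counts. Levels are given as CPM, a gene's counts as a share of its library's total with scaling across all lines, and levels of different genes are compared only as CPM per kilobase of exon. The 5 basal markers (KRT5, KRT14, KRT15, KRT17 and TP63) summed to 4097 to 20042 CPM in RWPE libraries and to at most 46.6 CPM in libraries of the other lines. The 5 luminal markers (KRT8, KRT18, KLK2, KLK3 and TMPRSS2) summed to 798 to 1450 CPM in RWPE and to 1267 to 15716 CPM in the other lines. The 8 plastic control libraries stood apart from the other 26: the 5 liver markers (ALB, APOA1, FGA, FGB and FGG) summed to 12.97 to 13.8 CPM there in RWPE, 11.3 to 16.98 CPM in LNCaP and 6.62 to 11.6 CPM in MDAPCa2a, and to at most 0.529, 1.65 and 0.630 CPM in the other libraries of these lines. VCaP held ALB in every group, and its plastic control libraries held FGA at 1.84 and 1.98 CPM against 0 reads in its other 7 libraries. By its label the plastic control group came from continuous culture, while all other groups are labelled day 4. The treatment protocol describes 4 days of culture for plastic control too, so its time in culture is not settled. In a comparison of any group with plastic control, this difference between libraries and the condition cannot be told apart. Fewer cells that express a gene and less of its RNA per cell cannot be told apart either.

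EGFR, the receptor of EGF itself, was highest in RWPE. RWPE libraries held 429 and 364 CPM on plastic in control medium, 291 and 264 CPM on ACP in control medium, and 139, 137 and 318 CPM on ACP with androgen. MDAPCa2a held 39.4, 62.8 and 75.3 CPM (lowest, median and highest of 8 libraries), LNCaP 14.5, 26.0 and 44.2 CPM (10 libraries) and VCaP 6.07, 19.3 and 40.0 CPM (9 libraries). No library of another line reached the lowest RWPE library. In control medium on plastic the log2 difference from RWPE was -3.17 ± 0.46 (SE) in LNCaP, -4.83 ± 0.50 in VCaP and -3.06 ± 0.46 in MDAPCa2a, with adjusted p of 2.16e-06, 8.51e-09 and 3.28e-06 (edgeR's quasi-likelihood test, Benjamini-Hochberg over all genes, as for every adjusted p here). With androgen on ACP, EGFR was higher in MDAPCa2a than in LNCaP (log2 1.43 ± 0.44, adjusted p 0.00966) and lower in VCaP than in MDAPCa2a (log2 -1.24 ± 0.44, adjusted p 0.0203). VCaP and LNCaP did not differ past the threshold there (log2 0.19 ± 0.43, adjusted p 0.732). Leaving out MDAPCa2a replicate 2 ended both of these calls (adjusted p 0.0506 and 0.0859), as did leaving out LNCaP replicate 1 for the first (0.0596) and VCaP replicate 2 for the second (log2 -0.85, 0.203). Against RWPE with androgen, MDAPCa2a was lower by 1.49 ± 0.41 on the log2 scale (adjusted p 0.00268), and by 0.85 without RWPE androgen replicate 3 (adjusted p 0.0513). The antisense gene EGFR-AS1 had 0 to 11 reads per library, so it could add little to EGFR whether or not strand was counted.

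ERBB2, the receptor without a ligand of its own, and ERBB3, the neuregulin receptor, ran in another order. ERBB2 lay at 268, 368 and 465 CPM (lowest, median and highest) in MDAPCa2a, at 124, 298 and 369 CPM in LNCaP, at 55.1, 97.3 and 137 CPM in RWPE and at 15.5, 37.2 and 73.8 CPM in VCaP. ERBB3 lay at 250, 296 and 372 CPM in MDAPCa2a, at 151, 216 and 278 CPM in LNCaP, at 32.6, 52.1 and 61.4 CPM in RWPE and at 17.7, 33.6 and 69.2 CPM in VCaP. For ERBB3 the libraries of LNCaP and MDAPCa2a lay above all RWPE and VCaP libraries, while for ERBB2 one LNCaP library in control medium on ACP, at 124 CPM, fell within the RWPE range. On plastic in control medium ERBB2 differed from RWPE by log2 1.15 ± 0.24 in LNCaP (adjusted p 0.000272), 1.77 ± 0.25 in MDAPCa2a (adjusted p 1.38e-06) and -1.67 ± 0.25 in VCaP (adjusted p 2.84e-06). ERBB3 differed by 2.27 ± 0.28, 2.59 ± 0.29 and -0.98 ± 0.28, with adjusted p of 2.37e-07, 3.13e-08 and 0.00345. Without VCaP plastic control replicate 1 the VCaP difference in ERBB3 was -0.51 (adjusted p 0.121). Neither receptor differed past the threshold between MDAPCa2a and LNCaP with androgen on ACP (ERBB2 log2 0.28 ± 0.24, adjusted p 0.359; ERBB3 log2 0.65 ± 0.27, adjusted p 0.0540). ERBB3 was called higher in MDAPCa2a there with no count filter (adjusted p 0.0322), with the replicate block (0.0434) and by DESeq2 (0.0439). In VCaP both were lower than in LNCaP there, with log2 differences of -4.06 ± 0.28 (adjusted p 1.17e-11) and -2.96 ± 0.29 (adjusted p 7.81e-09).

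Per kilobase of exon, EGFR was the most abundant receptor in RWPE, with a median of 23.2 CPM per kb against 9.43 for ERBB2 and 5.76 for ERBB3. That order held in all 7 RWPE libraries. EGFR was the lowest of the 3 in all 10 LNCaP, all 8 MDAPCa2a and 8 of 9 VCaP libraries, at medians of 2.08, 5.01 and 1.54 CPM per kb. ERBB2 and ERBB3 were close to each other in these lines, at 28.9 and 24.0 CPM per kb in LNCaP, 35.6 and 32.7 in MDAPCa2a and 3.61 and 3.71 in VCaP.

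**Figure D1:**
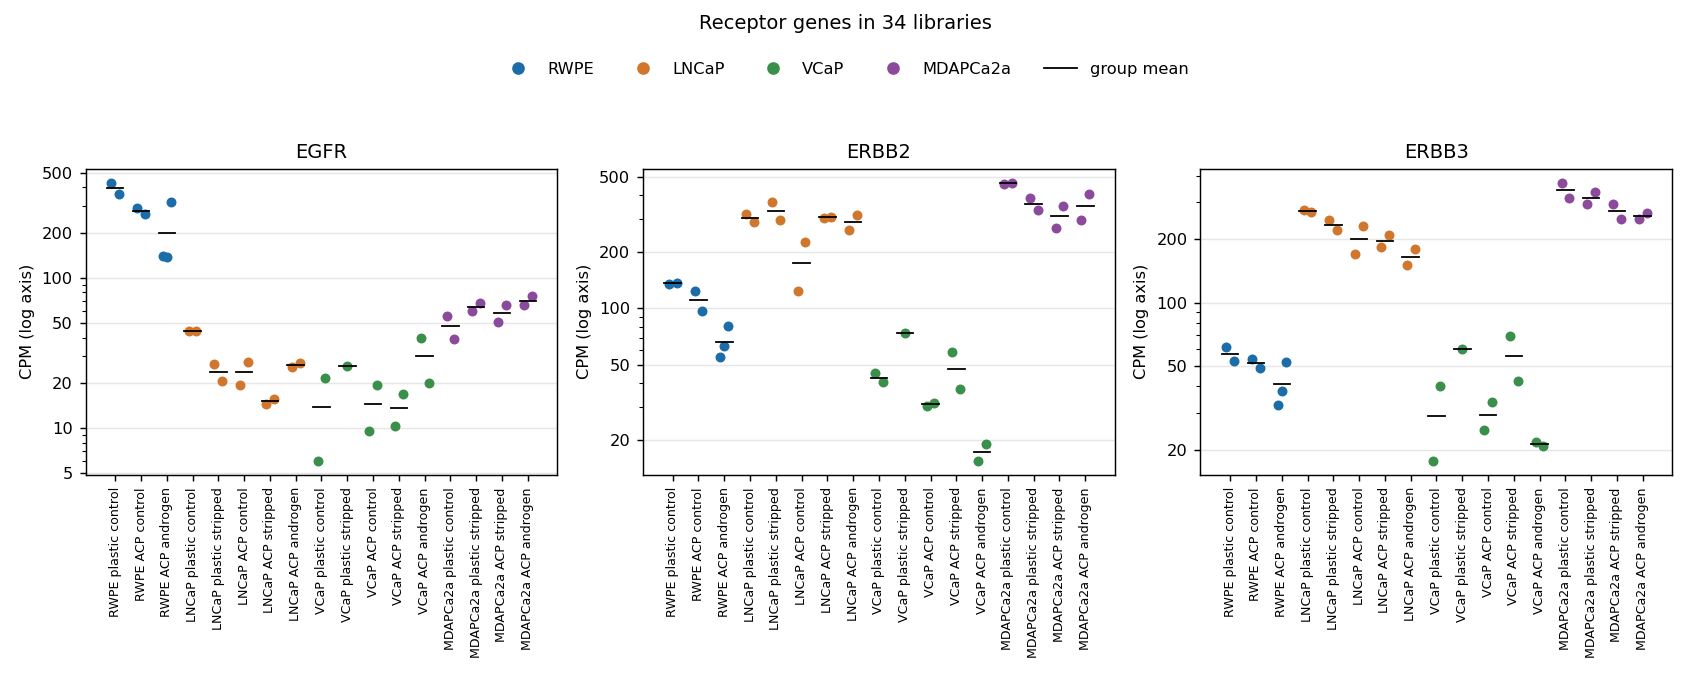
CPM of EGFR, ERBB2 and ERBB3 on log axes in each of 34 libraries (points, coloured by line) in 17 groups, with the group mean as a black line. RWPE libraries lie at 137 to 429 CPM for EGFR, above all other lines, and VCaP libraries lie at 15.5 to 73.8 CPM for ERBB2, below all LNCaP and MDAPCa2a libraries.

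AREG, EREG and NRG1 were RWPE genes in this set. AREG was read at 30.2 and 27.5 CPM in RWPE on plastic, 17.8 and 15.8 CPM on ACP, and 32.1, 31.1 and 36.2 CPM on ACP with androgen. EREG was read at 65.6 and 53.4 CPM, 26.5 and 32.7 CPM, and 67.5, 50.8 and 81.8 CPM in the same groups. NRG1 was read at 5.52 and 5.21 CPM, 4.36 and 4.58 CPM, and 2.32, 3.82 and 3.25 CPM. In the 27 libraries of the other lines AREG had at most 5 reads and EREG at most 7, and NRG1 had 0 reads in 22 and 1 or 2 in the other 5.

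On plastic in control medium the mean AREG level of RWPE was 381 times that of LNCaP (7 reads in 2 libraries). It was 1092 times that of VCaP (2 reads; exact 95% interval 302 to 9021) and 2013 times that of MDAPCa2a (1 read; 361 to 79538), intervals that cover counting error only. EREG was 1099, 899 and 829 times higher in RWPE than in LNCaP, VCaP and MDAPCa2a, with 5 reads in each of those groups. NRG1 had 0 reads in all 6 of those libraries, so its level in RWPE was at least 166-fold, 135-fold and 125-fold higher, taking 3 counts over a group as the limit that 0 reads allow. The highest library of another line held 0.366% of the RWPE median for AREG, 0.537% for EREG and 2.63% for NRG1. AREG has a near-identical copy in the hg19 assembly named in the submitters' processing notes, and the table has no row under its former symbol AREGB. How shared reads were counted is not given in the sources used here, so the AREG level against other genes is uncertain.

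TGFA, a soluble EGFR ligand, was highest in MDAPCa2a at 133, 161 and 218 CPM (lowest, median and highest). RWPE held 74.9, 85.0 and 113 CPM, VCaP 4.72, 16.5 and 46.0 CPM and LNCaP 2.54, 5.77 and 7.60 CPM. MDAPCa2a libraries lay above those of every other line. MDAPCa2a exceeded RWPE by log2 0.92 ± 0.29 on plastic (adjusted p 0.00859) and by 0.72 ± 0.26 with androgen on ACP (adjusted p 0.0182). The first call ended without RWPE replicate 1 (adjusted p 0.0693) and the second without MDAPCa2a replicate 1 or 2 (0.0873 and 0.0505). Against LNCaP with androgen the difference was 4.53 ± 0.34 (adjusted p 9.33e-11), and VCaP exceeded LNCaP by 1.23 ± 0.31 (adjusted p 0.00159).

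EGF itself had its lowest level in RWPE, the line whose medium contains EGF protein. RWPE libraries held 2 to 8 reads, or 0.0974 to 0.376 CPM. LNCaP libraries held 10.6, 17.6 and 31.2 CPM, VCaP 2.31, 3.27 and 19.3 CPM and MDAPCa2a 1.02, 2.13 and 4.79 CPM. Every library of the other lines lay above every RWPE library. On plastic in control medium EGF exceeded RWPE by log2 7.33 ± 0.37 in LNCaP, 4.09 ± 0.36 in VCaP and 4.45 ± 0.36 in MDAPCa2a (adjusted p 4.71e-14, 4.84e-10 and 1.13e-10). EGF passed the filter on low counts only through the other lines. These calls against RWPE were therefore largely set by that filter and add little to the levels. With androgen on ACP, VCaP and LNCaP did not differ past the threshold (log2 0.02 ± 0.25, adjusted p 0.971), while MDAPCa2a lay below LNCaP by 3.05 ± 0.29 on the log2 scale (adjusted p 6.30e-09).

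HBEGF, whose product binds EGFR and heparan sulphate, ran from 15.05 to 43.1 CPM in RWPE, 7.42 to 23.2 CPM in VCaP, 3.11 to 22.3 CPM in LNCaP and 0.807 to 2.20 CPM in MDAPCa2a. It was lowest in MDAPCa2a, with no overlap with any other line. On plastic in control medium it was lower than in RWPE in all 3 other lines, by 2.43 ± 0.40 in LNCaP, 0.92 ± 0.38 in VCaP and 4.16 ± 0.44 in MDAPCa2a on the log2 scale (adjusted p 1.35e-05, 0.0389 and 1.62e-08). With androgen on ACP the LNCaP and VCaP differences from RWPE were -0.51 ± 0.36 and -0.69 ± 0.36, with adjusted p of 0.210 and 0.0904. The VCaP call on plastic ended without RWPE replicate 1 (adjusted p 0.197) or VCaP replicate 2 (0.222), and without LNCaP androgen replicate 1 HBEGF was called lower in LNCaP with androgen. BTC was low everywhere, at 0.180 to 4.47 CPM. Its highest levels were in VCaP in stripped serum, at 4.47 CPM on plastic and 4.00 and 2.50 CPM on ACP.

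Per kilobase of exon, RWPE expressed several EGFR ligands, at medians of 18.3 CPM per kb for AREG, 17.1 for TGFA, 9.34 for EREG and 6.52 for HBEGF. The place of AREG in this order is uncertain, as its level against other genes is. TGFA was the highest of the 7 ligands in all 8 MDAPCa2a libraries, with a median of 32.4 CPM per kb against 0.372 for HBEGF. In LNCaP the highest ligand was EGF in 6 of 10 libraries and HBEGF in 4, with medians of 2.87 and 2.25 CPM per kb. In VCaP it was HBEGF in 6 of 9 and TGFA in 3, with medians of 4.99 and 3.32.

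**Figure D2:**
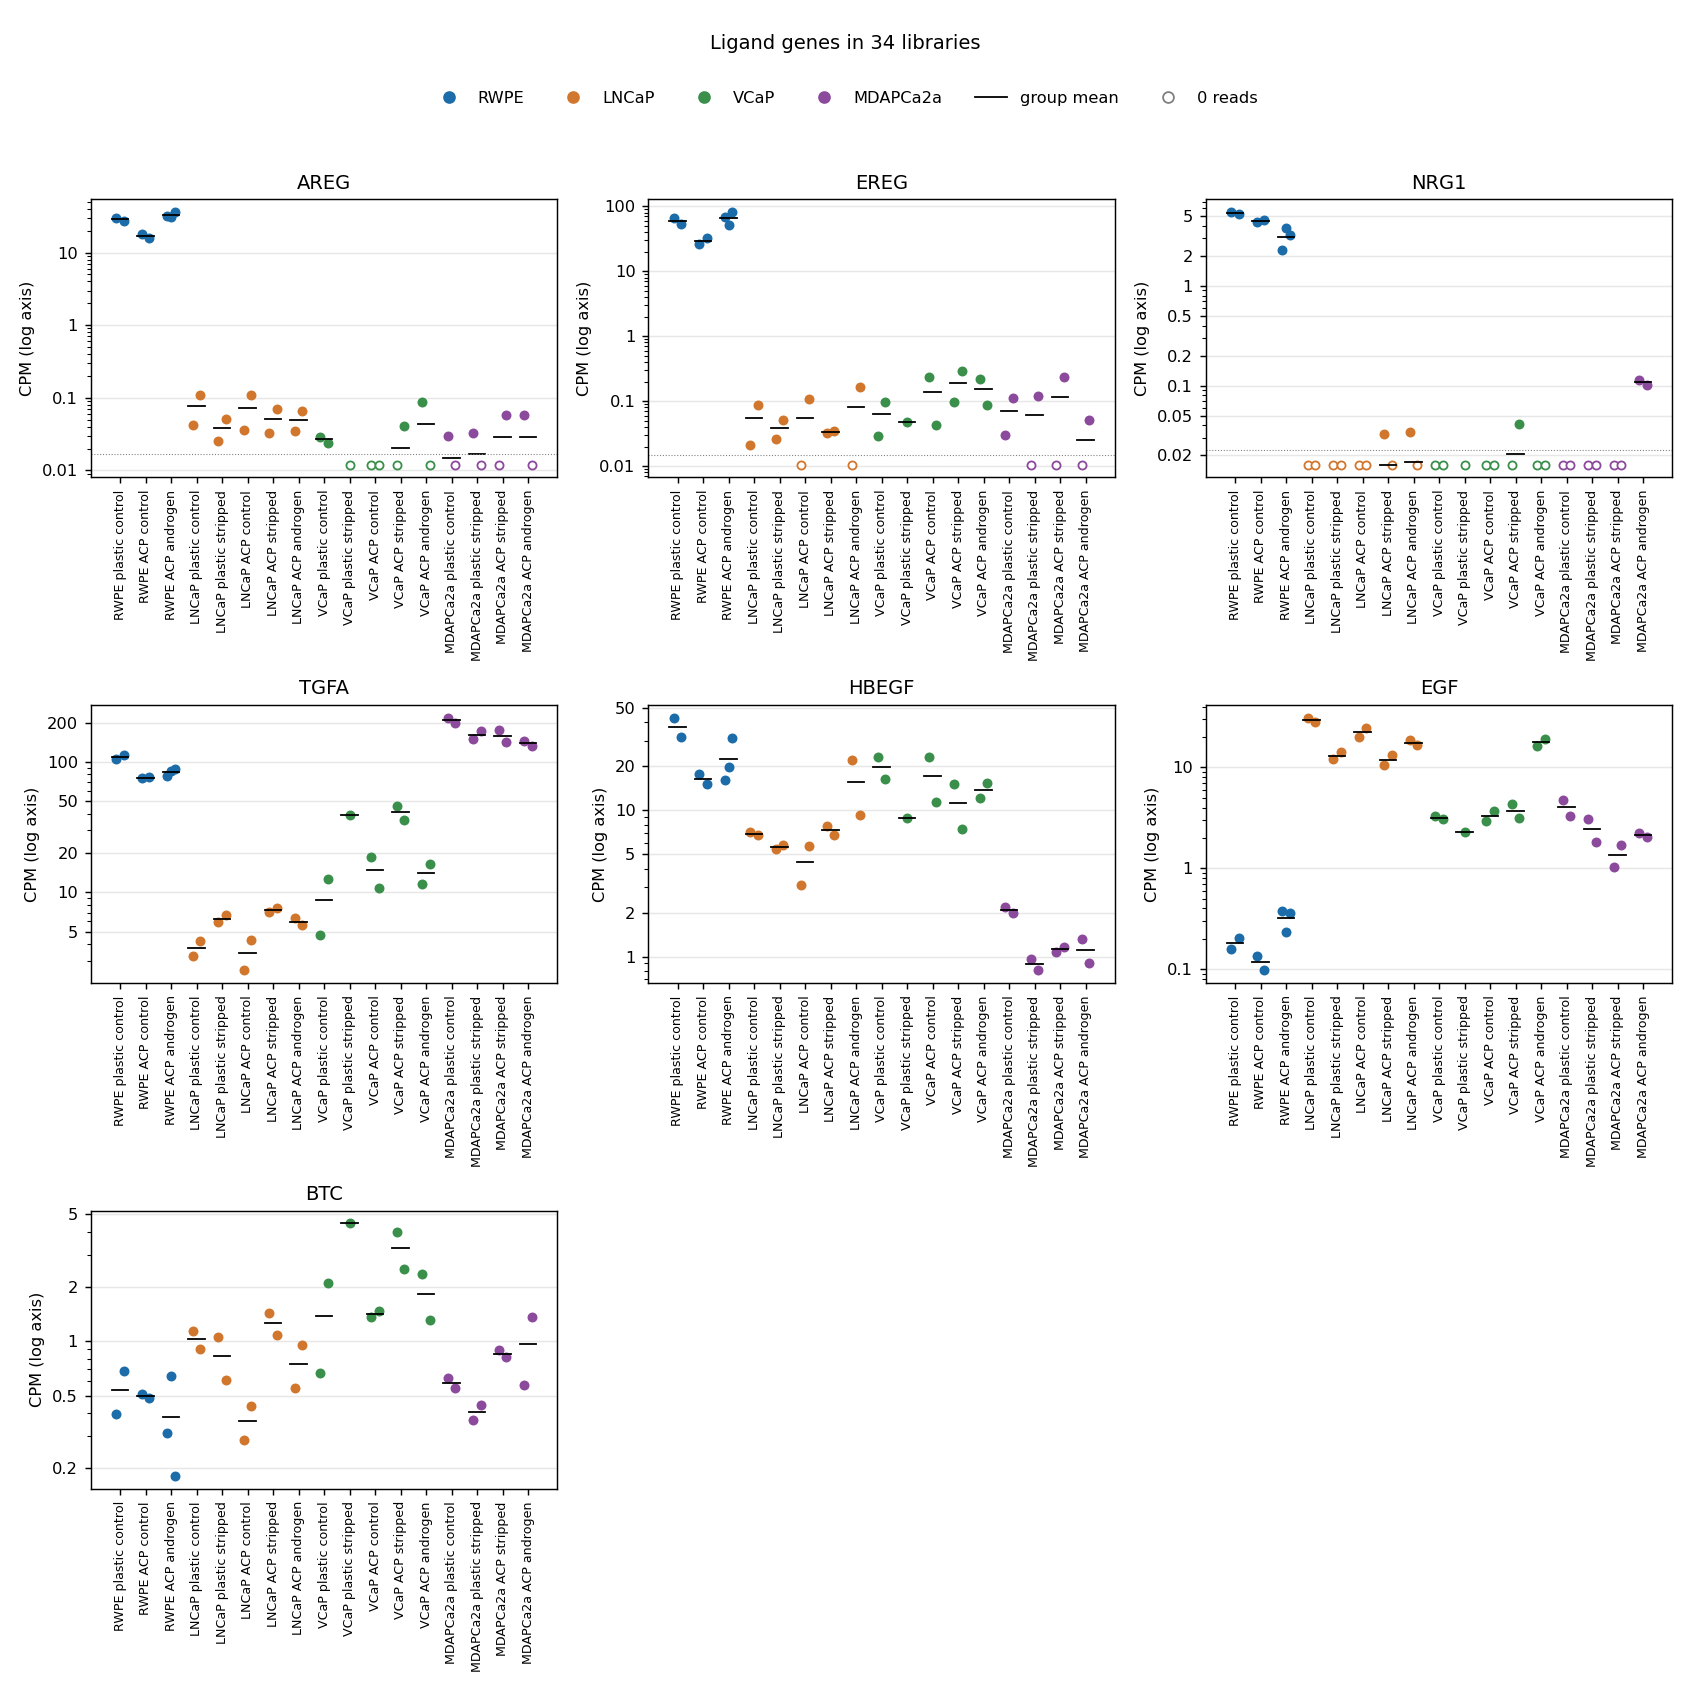
CPM of 7 ligand genes on log axes in each of 34 libraries (points, coloured by line), with group means as black lines and open points at the foot for libraries with 0 reads. AREG, EREG and NRG1 lie at 2.32 CPM or more in all 7 RWPE libraries and at most at 0.287 CPM in the other 27, and TGFA lies at 133 CPM or more in all MDAPCa2a libraries.

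Between lines, 45.3% to 67.4% of all genes tested were called, so the counts for the 10 genes are read against that share. On plastic in control medium, 9 of the 10 differed between LNCaP and RWPE, where 57.4% of 17323 genes did. For VCaP against RWPE all 10 did (62.4% of all genes), and for MDAPCa2a against RWPE 9 did (56.7%). With androgen on ACP, 8 of the 10 differed from RWPE in LNCaP (66.9% of all genes), 9 in VCaP (67.4%) and 10 in MDAPCa2a (64%). Between VCaP and LNCaP 4 differed (56%), between MDAPCa2a and LNCaP 4 (45.3%) and between VCaP and MDAPCa2a 7 (51.4%). The comparisons with RWPE share its libraries within each condition and are not independent of one another. AREG, EREG and NRG1 passed the filter on low counts only through RWPE, and EGF only through the other lines. Their calls against RWPE were therefore largely set by that filter, and the counts against RWPE say little beyond the levels given above. NRG1 was called between VCaP and MDAPCa2a on 0 against 4 reads, and DESeq2 did not call it.

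Within lines, 9 members passed the filter on low counts in RWPE (all but EGF) and 7 in each other line (all but AREG, EREG and NRG1). RWPE was compared first between surfaces in control medium. AREG, EREG and HBEGF were lower on ACP than on plastic. Their libraries did not overlap between the surfaces, and neither did those of EGFR, ERBB2, TGFA and NRG1, which were not called. The share of all genes without overlap was not counted. AREG fell by 0.75 ± 0.17 on the log2 scale (adjusted p 0.0360), EREG by 0.98 ± 0.24 (adjusted p 0.0479) and HBEGF, at 43.1 and 31.7 CPM on plastic and 17.7 and 15.05 CPM on ACP, by 1.16 ± 0.29 (adjusted p 0.0493). TGFA was at 106 and 113 CPM on plastic and 74.9 and 76.5 CPM on ACP (log2 -0.51 ± 0.17, adjusted p 0.105). These 3 calls among 9 members tested compare with 4.16% of 14293 genes, and the plastic libraries are of the set that stands apart. The adjusted p of all 3 lies close to the threshold of 0.05. Leaving out any 1 of the 4 libraries ended all 3 calls, with adjusted p of up to 0.317 for AREG, 0.329 for EREG and 0.362 for HBEGF, while the log2 differences stayed between -1.37 and -0.69. A fit of all lines together also ended them.

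In RWPE on ACP, the androgen group was compared with the control group, neither of which is of the set that stands apart. RWPE had no stripped group without androgen. In every androgen result of RWPE, androgen and a possible change of base medium therefore cannot be told apart. AREG and EREG were higher with androgen, by log2 1.00 ± 0.16 and 1.19 ± 0.22 (both adjusted p 0.0170), and all 3 androgen libraries lay above both control libraries for each gene. The androgen libraries also lay above for TGFA and below for NRG1, which were not called. How many of all genes separated in this way was not counted. ERBB2 was lower, at 55.1, 63.4 and 80.6 CPM against 124 and 97.3 CPM (log2 -0.72 ± 0.19, adjusted p 0.0287). This comparison and that of the surfaces share the 2 ACP control libraries, which had the lowest AREG levels in RWPE and the lowest EREG levels. These are 3 calls among 9 members tested, and 19.1% of 14293 genes were called. The levels of AREG and EREG with androgen on ACP, 33.1 ± 2.74 and 66.7 ± 15.5 CPM (SD, n = 3), were close to those on plastic in control medium, 28.8 ± 1.88 and 59.5 ± 8.61 CPM (SD, n = 2), a pair of groups that was not tested. EGFR in the 3 androgen libraries was at 139, 137 and 318 CPM, and their summed basal markers were at 4097, 13512 and 4482 CPM, all below the 15998 and 20042 CPM of the 2 ACP control libraries. The library with the most basal marker RNA had the lowest EGFR level, and the part of the lower basal marker level, or of its spread among the androgen libraries, in the results was not tested. Leaving out either control library ended all 3 calls, with adjusted p of up to 0.275 for AREG and EREG and 0.299 for ERBB2, and leaving out androgen replicate 1 or 2 ended that of ERBB2. Without androgen replicate 3, EGFR and ERBB3 were called lower as well, 5 members in all.

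LNCaP changed mainly in EGFR and EGF. EGFR was at 44.2 and 44.1 CPM on plastic in control medium, 26.7 and 20.5 CPM on plastic in stripped serum, 19.5 and 27.5 CPM on ACP in control medium, 14.5 and 15.6 CPM on ACP in stripped serum, and 25.4 and 27.1 CPM on ACP with androgen. The plastic control libraries were the highest and the ACP stripped libraries the lowest, with no overlap, a pattern not counted over all genes. EGFR was lower on ACP than on plastic in control medium (log2 -0.81 ± 0.18, adjusted p 0.0208), the 1 call among 7 members tested, where 12.6% of 14656 genes were called. It was lower in stripped serum than in control medium on plastic (log2 -0.85 ± 0.18, adjusted p 0.0151). Androgen on ACP raised it above the level in stripped serum (log2 0.79 ± 0.18, adjusted p 0.0277), the 1 call in that comparison, where 7.73% of genes were called. The androgen comparison uses no plastic control library. Leaving out either plastic control library or ACP control replicate 1 ended the surface call (adjusted p up to 0.165), and without ACP control replicate 2 ERBB2 and ERBB3 were called too. The stripping call ended without either plastic control library or stripped replicate 2 (up to 0.117), and the androgen call without any 1 of its 4 libraries (up to 0.175). A fit of all lines together ended all 3.

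EGF in LNCaP was at 31.2 and 28.5 CPM on plastic in control medium and 12.0 and 14.2 CPM on plastic in stripped serum. On ACP it was at 20.1 and 24.4 CPM in control medium, 10.6 and 13.1 CPM in stripped serum and 18.7 and 16.5 CPM with androgen. Stripped libraries were lower than control libraries on both surfaces, and the androgen libraries lay between them. Stripping lowered EGF by 1.14 ± 0.20 on plastic (adjusted p 0.00502) and by 0.92 ± 0.20 on ACP (adjusted p 0.0217) on the log2 scale, and androgen against stripped gave 0.55 ± 0.20 (adjusted p 0.114). On plastic EGFR and EGF were the 2 calls, against 9.45% of genes. On ACP the 2 calls, against 5.37% of genes, were EGF and TGFA, the latter at 7.11 and 7.60 CPM in stripped serum and 2.54 and 4.31 CPM in control medium (log2 1.09 ± 0.28, adjusted p 0.0460). The EGF call on plastic ended without control replicate 1 or stripped replicate 1 (adjusted p up to 0.0639). On ACP the EGF call ended without control replicate 2 or either stripped library (up to 0.216), and the TGFA call without control replicate 1 or either stripped library (up to 0.199) and in a fit of all lines. The comparison of stripped with control medium and that of androgen with stripped serum share the stripped libraries.

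HBEGF in LNCaP on ACP was at 3.11 and 5.73 CPM in control medium, 7.79 and 6.83 CPM in stripped serum and 22.3 and 9.27 CPM with androgen. Androgen against control gave log2 1.81 ± 0.38 (adjusted p 0.0110), the 1 call where 15.1% of genes were called, and androgen against stripped gave 1.10 ± 0.37 (adjusted p 0.0973). Androgen replicate 1, at 22.3 CPM, was far above the other LNCaP libraries, and without it androgen against control gave 1.02 (adjusted p 0.0966). The call also ended without control replicate 1 (log2 1.45, adjusted p 0.0741), and without control replicate 2 ERBB2 and TGFA were called higher too, 3 members in all. Between surfaces in stripped serum 0 of 7 members were called, where 6.12% of genes were, and the smallest adjusted p was that of EGFR (log2 -0.61 ± 0.18, adjusted p 0.0694), the 1 member with an unadjusted p below 0.05, which DESeq2 called. In the test of whether stripping acted differently on the 2 surfaces 0 were called (0.307% of genes), and the largest difference was in BTC (log2 1.99 ± 0.64, adjusted p 0.347), the 1 member with an unadjusted p below 0.05 in edgeR, and DESeq2 called 0.

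In VCaP on ACP, androgen was compared first with stripped serum. ERBB2 was at 58.6 and 37.2 CPM in stripped serum and 15.5 and 19.0 CPM with androgen. ERBB3 was at 69.2 and 42.6 CPM against 21.6 and 20.8 CPM, and TGFA at 46.0 and 36.1 CPM against 11.7 and 16.5 CPM. All 3 were lower with androgen, without overlap: ERBB2 by 1.47 ± 0.25 (adjusted p 0.00553), ERBB3 by 1.40 ± 0.37 (adjusted p 0.0288) and TGFA by 1.54 ± 0.43 (adjusted p 0.0372) on the log2 scale. EGF was higher, at 16.3 and 19.3 CPM against 4.29 and 3.11 CPM (log2 2.27 ± 0.32, adjusted p 0.00277). These were 4 calls among 7 members tested, and 17.5% of 15614 genes were called. EGFR was at 40.0 and 19.9 CPM with androgen and 10.3 and 16.8 CPM without (log2 1.14 ± 0.57, adjusted p 0.183). The libraries of EGFR and of BTC did not overlap either, and neither gene was called. The share of all genes without overlap was not counted here. The ERBB2 and EGF calls held when any 1 of the 4 libraries was left out, with adjusted p of up to 0.0384 and 0.0239. That of ERBB3 ended without stripped replicate 1 or either androgen library (up to 0.185), and that of TGFA without any 1 of the 4 (up to 0.165).

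Against VCaP in control medium on ACP, androgen raised EGF from 2.96 and 3.67 CPM (log2 2.44 ± 0.32, adjusted p 0.00405). This was the only call there, where 5.99% of genes were called, and ERBB2 stood at -0.83 ± 0.25 (adjusted p 0.0796), ERBB3 at -0.44 (adjusted p 0.513) and TGFA at -0.05 ± 0.43 (adjusted p 0.961). ERBB2 was called there with no count filter, by DESeq2 and in the fit of all lines. TGFA in control medium on ACP was at 18.7 and 10.8 CPM, near its androgen level of 11.7 and 16.5 CPM. The EGF call ended without either control library (adjusted p up to 0.0641). Both androgen comparisons of VCaP share the androgen libraries. In these libraries the summed fibroblast markers (COL1A1, COL1A2, COL3A1, DCN and LUM) were at 7.36 and 8.41 CPM against 40.4 and 161 CPM in stripped serum, most of it LUM, with COL1A2 at 0 in both stripped libraries. The summed liver markers were at 15.7 and 65.4 CPM against 268 and 322 CPM, nearly all of it ALB, with FGA and FGG at 0 in all 4 libraries. The part of these lists in the changes of the ErbB genes was not tested.

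Stripping in VCaP on ACP gave 0 calls among 7 members tested, where 0.82% of genes were called, and the largest difference was in TGFA (log2 1.49 ± 0.43, adjusted p 0.129). On plastic, where the stripped group is 1 library, stripping gave 0 calls (0.89% of genes), with TGFA at 39.4 CPM against 4.72 and 12.6 CPM in control medium (log2 2.23 ± 0.50, adjusted p 0.0641). Between surfaces 0 members were called in control medium (0.0448% of genes) and 0 in stripped serum (0% of genes). In edgeR, 3 members had an unadjusted p below 0.05 for stripping on ACP, 4 for stripping on plastic and 0 for either surface comparison. Over all genes, edgeR gave 1123 genes with an unadjusted p below 0.05 in the first of these surface comparisons and 511 in the second, and DESeq2 called 41 and 4 genes. DESeq2 called TGFA in both stripping comparisons, as did edgeR in a fit of all lines, which called ERBB3 as well. Without plastic control replicate 2, edgeR called TGFA on plastic within VCaP too.

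MDAPCa2a showed no change in the 10 genes past the threshold. Androgen on ACP gave 0 calls among 7 members tested, where 0% of 13626 genes were called. Between surfaces in stripped serum 0 members and 0.00734% of genes were called. Stripping on plastic gave 0 calls where 1.58% of genes were called, with HBEGF at 0.963 and 0.807 CPM against 2.20 and 1.99 CPM in control medium (log2 -1.20 ± 0.34, adjusted p 0.123). In edgeR, 2 members (EGFR and HBEGF) had an unadjusted p below 0.05 for stripping and 0 for surface or androgen. For androgen, edgeR gave 236 genes with an unadjusted p below 0.05 and DESeq2 called 3. For the surface it gave 2071, and DESeq2 called 206. No member was called by DESeq2 in these 3 comparisons.

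**Figure D3:**
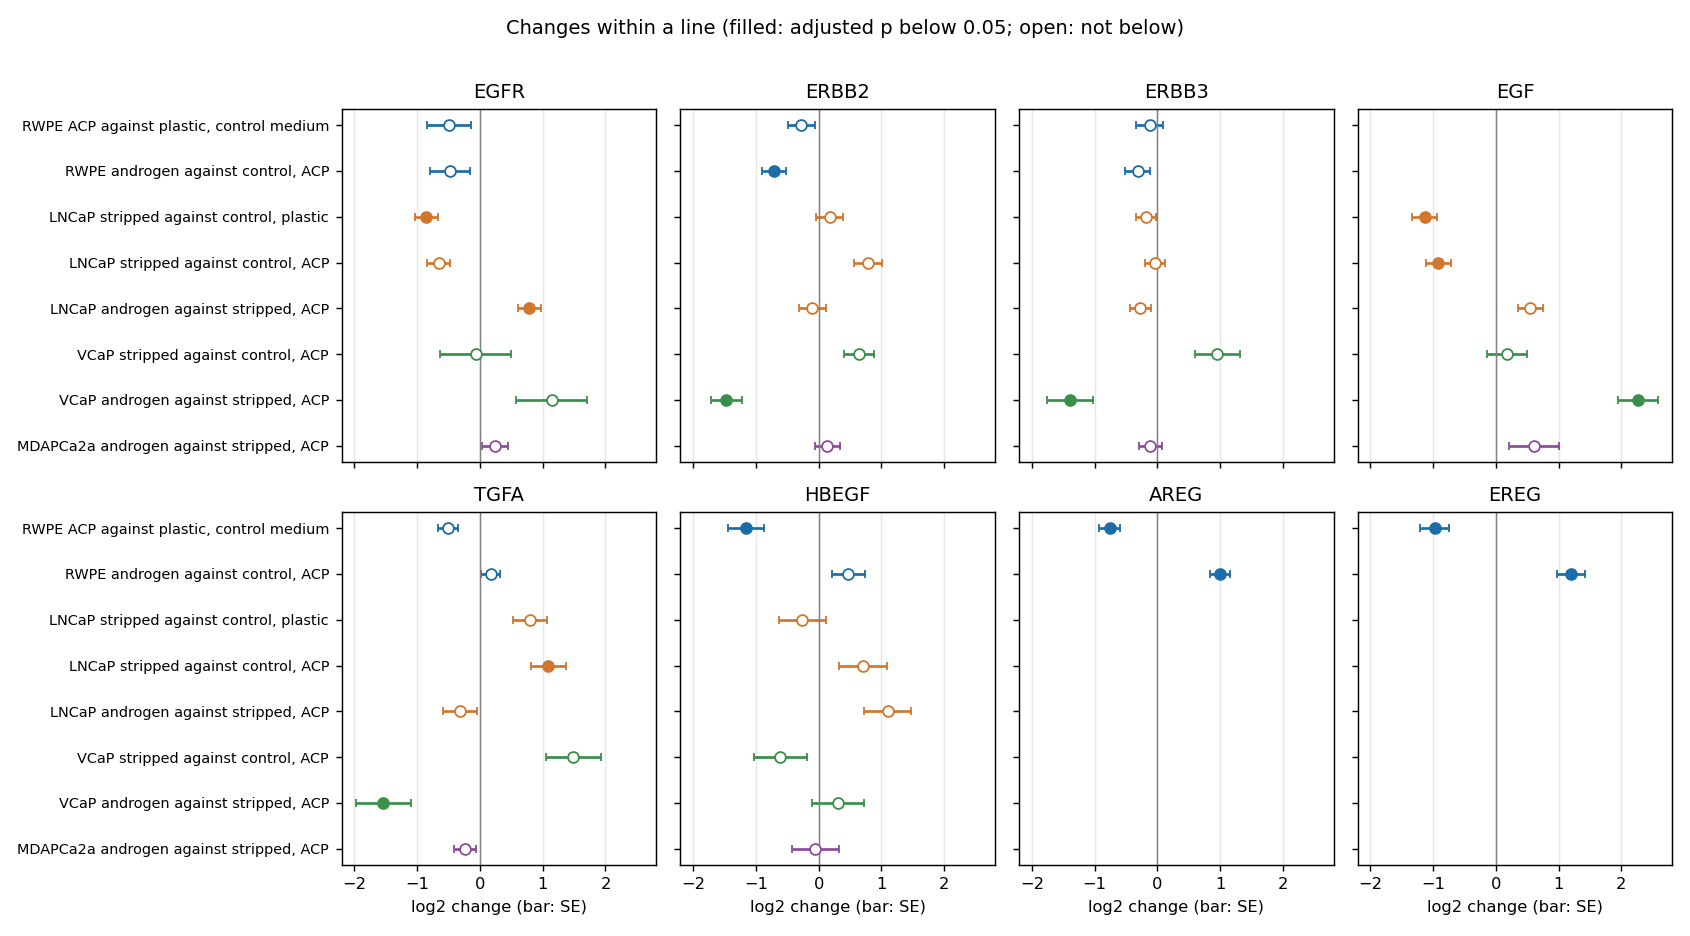
Log2 changes of 8 genes (panels) in 8 comparisons within a line, with bars of 1 SE, filled where the adjusted p is below 0.05, blank where the gene was not tested. EGF rose by 2.27 with androgen against stripped serum in VCaP while ERBB2, ERBB3 and TGFA fell, and AREG and EREG fell on ACP and rose with androgen in RWPE.

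The androgen effects of VCaP and LNCaP on ACP were compared directly in the fit of all lines. The effect was larger in VCaP for EGF (difference of log2 effects 1.70 ± 0.37, adjusted p 0.00434) and more negative for ERBB2 (-1.39 ± 0.35, adjusted p 0.0114). ERBB3 and TGFA differed by -1.14 ± 0.39 (adjusted p 0.0590) and -1.25 ± 0.43 (adjusted p 0.0645), which does not pass, although both were called with no count filter and by DESeq2. EGFR, called in LNCaP and not in VCaP, gave a difference of 0.34 ± 0.62 (adjusted p 0.807), so its response is not shown to differ between the lines. Without VCaP ACP stripped replicate 1 the ERBB2 difference was -1.03 (adjusted p 0.0811), and the EGF call held without any 1 of the 8 libraries (adjusted p up to 0.0268). The 2 calls among 10 members compare with 10.9% of 17323 genes.

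Other ErbB receptors and ligands (ERBB4, EPGN, NRG2, NRG3 and NRG4) added little RNA in most groups. On plastic in control medium ERBB4 had 9 reads in LNCaP, 7 in VCaP, 0 in MDAPCa2a and 4 in RWPE. EPGN, which encodes the EGFR ligand epigen, was lower than in RWPE in all 3 other lines, at 0.163 ± 0.081, 0.370 ± 0.193 and 0.260 ± 0.095 CPM against 3.61 ± 0.0054 CPM (SD, n = 2). It rose in RWPE with androgen on ACP to 19.0 ± 6.44 CPM (n = 3) from 6.71 ± 0.290 CPM (n = 2; log2 1.52 ± 0.27, adjusted p 0.0170), as AREG and EREG did. NRG3 in LNCaP was higher in stripped serum than in control medium on both surfaces, by log2 2.95 ± 0.65 on plastic (adjusted p 0.0169) and 2.92 ± 0.74 on ACP (adjusted p 0.0455), and lower with androgen than in stripped serum (log2 -3.65 ± 0.79, adjusted p 0.0202). Leaving out either ACP control library of RWPE ended the EPGN call (adjusted p up to 0.275). The NRG3 calls ended without either plastic control library or stripped replicate 1 on plastic (up to 0.149), any 1 library on ACP (up to 0.231), and stripped replicate 2 or androgen replicate 1 for androgen (up to 0.138).

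Of the 8 genes for ligand release, 4 were higher and 1 lower in LNCaP than in RWPE on plastic, 2 higher and 3 lower in VCaP, and 3 higher and 3 lower in MDAPCa2a. These 5, 5 and 6 calls of 8 compare with 57.4%, 62.4% and 56.7% of all genes, so the counts say little about the list. ADAM17, the main sheddase of AREG, EREG, HBEGF and TGFA, was lower in all 3 lines in both conditions, at 22.5, 22.0 and 30.6 CPM against 66.4 CPM on plastic (log2 -1.56 ± 0.15, -1.60 ± 0.15 and -1.12 ± 0.15). ADAM12 was the largest rise in LNCaP and VCaP, at 1.71 and 1.22 CPM against 0.116 CPM, and RHBDF1, a partner of ADAM17, the largest in MDAPCa2a (log2 1.02 ± 0.20). ADAM9, named after its values were seen, was higher in LNCaP and VCaP at 477 and 406 CPM against 118 CPM. ADAM9 also rose with androgen on ACP in LNCaP (log2 1.20 ± 0.18, adjusted p 0.00317) and in VCaP (1.56 ± 0.20, adjusted p 0.00172). It was the 1 of the 8 called in VCaP, where 17.5% of all genes were called. In LNCaP 2 of the 8 were called, where 7.73% of all genes were. The LNCaP call of ADAM9 ended without stripped replicate 1. Of the 8 adaptors that carry the signal from the receptors, 5 were lower and 0 higher on plastic in LNCaP and in VCaP, and 3 were lower and 3 higher in MDAPCa2a, again 5, 5 and 6 calls of 8 against the same shares of all genes. SHC1 was the largest fall in all 3, from 1022 CPM in RWPE to 343, 225 and 86.9 CPM.

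Of the 8 feedback inhibitors, which ErbB and MAPK signalling induce and which damp it, 6 were lower and 1 higher in LNCaP than in RWPE on plastic, 6 lower and 2 higher in VCaP, and 2 lower and 3 higher in MDAPCa2a. These 7, 8 and 5 calls of 8 compare with 57.4%, 62.4% and 56.7% of all genes, near the share for MDAPCa2a. Their median log2 difference was -2.09 in LNCaP, -1.58 in VCaP and 0.29 in MDAPCa2a, against 0.0090, 0.044 and -0.0026 over all 17323 genes. With androgen on ACP the medians were -1.28, 0.030 and 0.67, against -0.046, -0.043 and -0.092 over all genes. There 6 were lower and 1 higher in LNCaP, 3 lower and 2 higher in VCaP, and 1 lower and 5 higher in MDAPCa2a. These 7, 5 and 6 calls of 8 compare with 66.9%, 67.4% and 64% of all genes, so the low median in VCaP was not seen in both conditions. LRIG1, which promotes the breakdown of ErbB receptors, was the largest rise in LNCaP and VCaP and rose in MDAPCa2a too, at 162, 137 and 172 CPM against 8.53 CPM in RWPE. DUSP6, the phosphatase of ERK, was the largest fall in LNCaP and VCaP, at 0.918 and 2.56 CPM against 54.8 CPM, and was at 41.0 CPM in MDAPCa2a. SPRY4 and SPRY2, Sprouty inhibitors of RAS signalling, were the largest rise and fall in MDAPCa2a, with SPRY4 at 883 and 858 CPM against 42.3 and 34.3 CPM in RWPE and SPRY2 at 0.0893 and 0.0827 CPM against 10.5 and 11.6 CPM.

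Within VCaP on ACP, 4 of the 8 feedback genes rose and 0 fell with androgen against stripped serum (median log2 0.84, against -0.026 over all genes), where 17.5% of all genes were called. Against control medium, with the same androgen libraries, 2 rose and 0 fell (median log2 1.04), where 5.99% of genes were called. Against stripped serum, DUSP6 was the largest rise (log2 2.15 ± 0.55, adjusted p 0.0254), and ERRFI1, named after its values were seen, which binds and inhibits the EGFR kinase, rose from 40.6 ± 1.19 to 174 ± 39.3 CPM (n = 2; log2 2.10 ± 0.22, adjusted p 0.000943). The DUSP6 call ended without any 1 of the 4 libraries (adjusted p up to 0.124), and the ERRFI1 call held (up to 0.0105). In RWPE, DUSP6 fell from 62.2 and 47.4 CPM on plastic to 10.6 and 11.6 CPM on ACP (log2 -2.28 ± 0.26, adjusted p 0.00343). This was the 1 call among the 8 there, where 4.16% of all genes were called, and the plastic libraries are of the set that stands apart. DUSP6 rose with androgen on ACP (log2 1.24 ± 0.24, adjusted p 0.0170), where 2 of the 8 and 19.1% of all genes were called. Leaving out either ACP control library ended both RWPE calls of DUSP6. The difference between the androgen effects of VCaP and LNCaP was called for 4 of the 8, where 10.9% of all genes were called, with ERRFI1 and LRIG1 more positive and SPRY1 and SPRY4 more negative in VCaP. The first 2 calls held without any 1 of the 8 libraries. That of SPRY4 ended without LNCaP stripped replicate 2, LNCaP androgen replicate 1, VCaP stripped replicate 1 or VCaP androgen replicate 2 (adjusted p up to 0.286), and that of SPRY1 without 5 of the 8, namely LNCaP stripped replicate 1, LNCaP androgen replicate 2, VCaP stripped replicate 1 and both VCaP androgen libraries (up to 0.221).

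**Figure D4:**
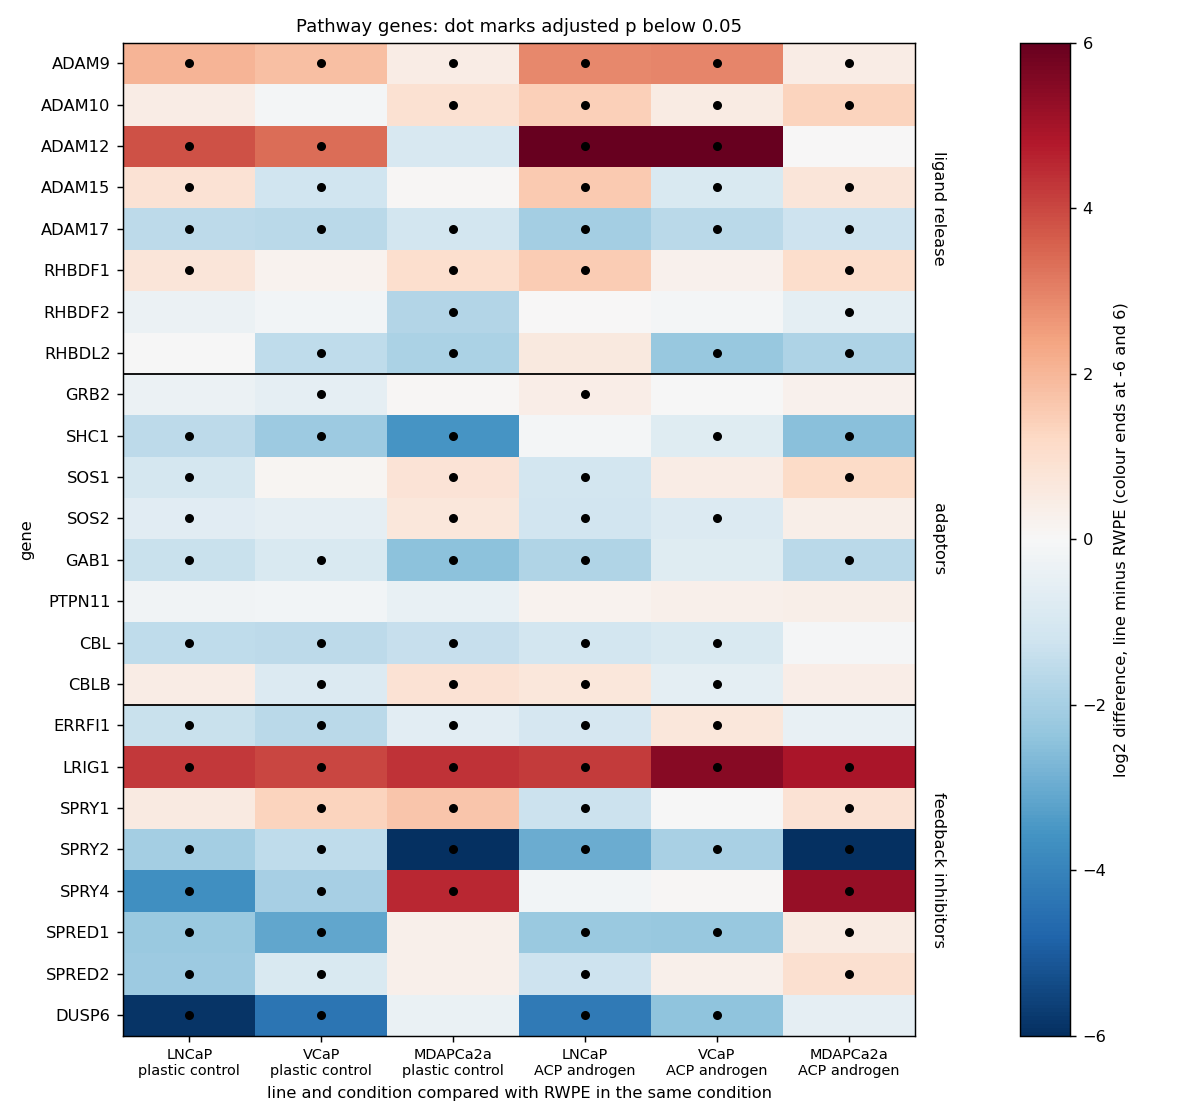
Log2 difference from RWPE (colour, cut at -6 and 6) of 24 genes for ligand release, adaptors and feedback inhibitors in 3 lines and 2 conditions, with a dot where the adjusted p is below 0.05. ADAM17 is lower and LRIG1 higher in all 6 comparisons, and SPRY4 and SPRY2 go in opposite directions in MDAPCa2a.

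Across the 17 groups, the group means of log2 CPM of AREG and EREG correlated at Pearson's r of 0.980, those of AREG and NRG1 at 0.966 and those of ERBB2 and ERBB3 at 0.953. The groups of a line share its cells and much of these values is the difference between lines. With each line's mean removed, r was 0.595 for AREG and EREG, 0.342 for AREG and NRG1 and 0.770 for ERBB2 and ERBB3. Outside RWPE, AREG, EREG and NRG1 had at most 7 reads per library. Their r over all groups is thus mainly RWPE against the rest. Their r with line means removed holds counting noise in every group outside RWPE and does not show that they vary together there. Of 17322 genes, the one with the pattern most like that of EGFR was ANO6 (r 0.970), of ERBB2 CCDC64B (0.974), of ERBB3 CPPED1 (0.989), of EGF ATP6V1F (0.961) and of AREG HOXD11 (0.990). For EREG it was LOC100996579 (0.991), for HBEGF CRIM1 (0.967), for TGFA CYBRD1 (0.974), for BTC GAB2 (0.943) and for NRG1 SPRR2D (0.989). These values are descriptions over 17 groups, with no test, and those of AREG, EREG and NRG1 have the same limit of few reads outside RWPE.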

How the data were processed

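The authors deposited a table of raw counts per gene for 34 libraries. STAR, HTSeq and the hg19 assembly are named in the submitters' processing notes. The annotation, tool versions and whether counting was stranded were not given in the sources used here. Groups came from the sample labels. Counts were tested with edgeR 4.0.16 (limma 3.58.1, R 4.3.3): TMM scaling, genes kept by filterByExpr with a minimum count of 10, the quasi-likelihood F test, and Benjamini-Hochberg adjustment over all genes tested, with a threshold of 0.05. Comparisons within a line used that line's libraries, and comparisons between lines used all 34. The standard error is the log2 change divided by the square root of F. CPM used TMM library sizes over all lines, and exon lengths came from GENCODE v29. Libraries held 15440141 to 44779246 counts. Intervals on reads are exact at 95%, and 0 reads were bounded by 3 counts over the group, both for counting error only. The genes and lists were chosen with earlier results of these data known. All 10 genes are described, in each list the largest rise and fall called may be named, and other names were chosen after their values were seen. The genes most alike were ranked by Pearson's r over group means of log2 CPM with a prior count of 1. Alternatives were RLE scaling, no count filter, a replicate block, DESeq2 1.42.0, leaving out each library, a log2 change of at least 1, a fit of all lines, and leaving out 12 genes with date-like values in RWPE plastic control. The scripts were tested on simulated data.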

Additional observations from a re-analysis of the deposited data

Results flagged for a closer look

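The response to androgen on ACP differed between VCaP and LNCaP in a direct test for 2 of the 10 genes. In that test 10.9% of 17323 genes were called. For EGF the difference of log2 effects, VCaP minus LNCaP, was 1.70 (adjusted p 0.00434, edgeR's quasi-likelihood test), and EGF was higher with androgen in both libraries of each line. For ERBB2 it was -1.39 (adjusted p 0.0114), with both VCaP androgen libraries below both stripped libraries and the LNCaP groups overlapping. The ERBB2 call ended without VCaP ACP stripped replicate 1, where the difference was -1.03. How many of all genes had groups apart in this way was not counted.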

How the results depend on the processing

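No steady pairing by replicate number was seen: the correlation of same-numbered deviations ranged from -0.248 to 0.252, and no line had all pairs over 0.1. Where both groups hold 2 libraries, replicates 1 and 2 give the same value, so these correlations cannot exclude pairing. With the replicate block 5 members were called in RWPE between surfaces and 5 for androgen. Of 14293 genes, 2661 and 5741 were called there, against 595 and 2730 in the main fit. Only RWPE androgen replicate 3 has that number, so the block in effect leaves this library out and is not a check of pairing alone in RWPE. The block ended none of the 18 member calls within lines and 1 of the 70 between lines. RLE scaling and the removal of date-like values ended none of these 88 calls, and DESeq2 and the absence of a count filter ended 1 each, both between lines. The count of members called moved by over 1.5 times as follows. With no count filter it was 5 for LNCaP stripping on ACP, 4 for the difference in androgen effects, 2 for the LNCaP surface in control medium and for androgen in LNCaP against stripped serum and against control and in VCaP against control, and 1 for the LNCaP surface in stripped serum and for VCaP stripping on plastic and on ACP. DESeq2 gave 4 for LNCaP stripping on ACP and the counts just listed for these other comparisons. The number of all genes called moved too, and these counts are read against it. For LNCaP stripping on ACP it went from 787 of 14656 genes to 1732 of 20397 with no filter. DESeq2 called 1307 of 14860 there. For the difference in androgen effects it was 1887 of 17323 in the main fit, 2035 of 22001 with no filter and 2450 of 15601 by DESeq2. With no filter, 20397 genes were tested in LNCaP and 20303 in VCaP. Genes called were 2933 and 1827 for the LNCaP surface in control medium and stripped serum. They were 2028 and 2982 for LNCaP androgen against stripped and against control. In VCaP they were 1774 for androgen against control, 1231 for stripping on plastic and 927 on ACP. DESeq2 called 2627, 1733, 1733, 2846, 1652, 1172 and 845 in the same order. Smaller moves were to 4 with DESeq2 for the RWPE surface, to 5 with no filter for VCaP androgen against stripped, and to 5 with no filter, DESeq2 or the block for MDAPCa2a against LNCaP, among others. Over all genes these settings called 1334 of 15210, 3597 of 20303, 7536 of 22001, 7927 of 16880 and 8136 of 17323 in that order. The fit of all lines gave 0 for the RWPE and LNCaP surfaces in control medium and for LNCaP androgen against stripped, 1 for LNCaP stripping on each surface, and 2 for VCaP stripping on each surface and VCaP androgen against control. Of 17323 genes, that fit called 831 and 647 for those surfaces and 739 for LNCaP androgen against stripped. For LNCaP stripping it called 1133 on plastic and 605 on ACP. For VCaP it called 1561 for stripping on plastic, 1057 on ACP and 2275 for androgen against control. Requiring a log2 change of at least 1 left 1 call for the RWPE surface and LNCaP stripping on each surface, and 0 for the LNCaP surface in control medium and LNCaP androgen against stripped. The share of all genes that met this limit was not counted.

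Leaving out 1 library ended 16 of the 18 calls within lines in at least 1 fit, and 11 of the 70 between lines. A lone remaining library was assumed to vary like the other groups. The number of all genes called without each library is not given here. The ranges of member counts that follow are therefore not read as results about the members. Counts ranged from 0 to 0 for the RWPE surface, 0 to 5 for RWPE androgen, 0 to 3 for the LNCaP surface in control medium and for LNCaP androgen against control, 0 to 1 for LNCaP stripping on plastic, 0 to 2 for LNCaP stripping on ACP, and 0 to 1 for LNCaP androgen against stripped, VCaP stripping on plastic and VCaP androgen against control. They ranged from 2 to 3 for VCaP androgen against stripped and from 1 to 3 for the difference in androgen effects. No member's direction reversed past the threshold. With 2 libraries in most groups, and 0 to 7 reads of AREG, EREG and NRG1 per library outside RWPE, changes of these ligands within the other lines were not detectable at this depth.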
